A study of Arabidopsis thaliana with 66 samples.

Results

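AOP3 (AT4G03050), a gene of glucosinolate metabolism on chromosome 4 of Arabidopsis thaliana, was followed across all groups of an atlas of flowers and floral organs. The gene was picked on its measured rise in ap3-6 flowers over wild-type flowers of stage 12, so that difference and every other direct comparison of ap3-6 flowers are given as descriptions with no test. AOP3 is 1 of 13286 genes with a probe set of their own in the annotation used for the ATH1 array, and it has 1 such probe set. RNA from 22 groups was hybridised to 66 one-colour arrays, 3 per group. Wild-type Col-0 plants supplied flowers of stages 9, 10/11, 12 and 15, the 4 floral organs (sepals, petals, stamens, carpels) dissected at stages 12 and 15, flower stalks (pedicels) of stage 15, and mature pollen. Those plants and the mutants grew in continuous light at 23 °C. A separate wild-type group, flowers of unstated stage, came from plants in long days at 20 °C, and its levels entered no test.

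The other 7 groups were mutant flowers collected at the equivalent of stage 12, each labelled as Col-0 in genetic background. According to the labels, ap3-6 flowers lack petals and stamens, and ap2-6 flowers lack sepals and petals and form carpel-like structures on sepals. Flowers of ag-12 have sepals and petals in place of stamens and carpels and are indeterminate, and ufo-1 flowers carry filaments in the whorls where petals and stamens normally form. Flowers of ap1-15 lack sepals and bear secondary flowers in place of petals, lfy-12 flowers are converted to leaf-like structures, and clv3-7 flowers have an enlarged meristem and a gynoecium of many carpels. The mutated genes AP3 and AP2 were not analysed here, so the ap3-6 and ap2-6 labels were not checked against them. The files hold no genotypes, so the Col-0 label of each mutant was not checked at the chromosome 4 cluster that holds AOP3. The labels do not say whether the 3 arrays of a group came from separate plants, so p-values measure only the spread between these samples, which may be technical.

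Glucosinolates are sulfur-rich defence compounds of the cabbage order. Aliphatic glucosinolates are built from methionine, which is first lengthened, then converted to the core structure, and finally altered in its side chain. AOP3 is a 2-oxoglutarate-dependent dioxygenase that converts methylsulfinylalkyl glucosinolates to hydroxyalkyl glucosinolates. Its close relative AOP2 makes alkenyl glucosinolates from the same precursors, and AOP1, the other member of this cluster of tandem copies, has no established role in the pathway. Natural accessions differ in which of AOP2 and AOP3 their leaves express. Leaves of Landsberg erecta express AOP3, whereas leaves of Columbia keep methylsulfinylalkyl glucosinolates.

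The deposited values were MAS5 signals on a linear scale, from 0.00753 to 20032.9. A signal of 22.61, the 40th percentile of all values, served as a floor, and a group with every array at or below it is called below the floor. Replicate arrays correlated at 0.986 or more, except in mature pollen, where the lowest correlation was 0.959. A probe set was called changed at an adjusted p below 0.05 and a change of at least 2-fold, in limma over all 17646 probe sets tested. Log2 changes are differences of log2(signal + 11.31), which understates the change of dim genes. Values after ± are SDs over 3 arrays.

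AOP3 was clearly measured in flowers of only 2 of the 22 groups, ap3-6 and ap2-6. The 3 ap3-6 arrays gave AOP3 signals of 181, 197 and 176, a mean of 184.6 ± 11.2 (SD, n = 3). The 3 ap2-6 arrays gave 74.99, 82.8 and 71.7, a mean of 76.5 ± 5.69. The stage 12 wild-type flowers gave 1.78, 9.18 and 6.90, all below the floor. No ap3-6 array overlapped an ap2-6 array, and the ap3-6 mean was 2.41 times the ap2-6 mean. The lowest of these 6 arrays, at 71.7, was 2.51 times the highest of the other 60 arrays, at 28.6, while the median of those 60 was 7.50. Ranked within its own array, AOP3 stood at the 81.4 to 83.5 percentile in ap3-6 flowers and at the 59.6 to 63.2 percentile in ap2-6 flowers. On the other arrays it stood between the 2.15 and 50.9 percentile, with a median of 23.2. The probe set passed the filter on dim signals through these 2 groups alone, since no other group had all its arrays above the floor.

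**Figure D1:**
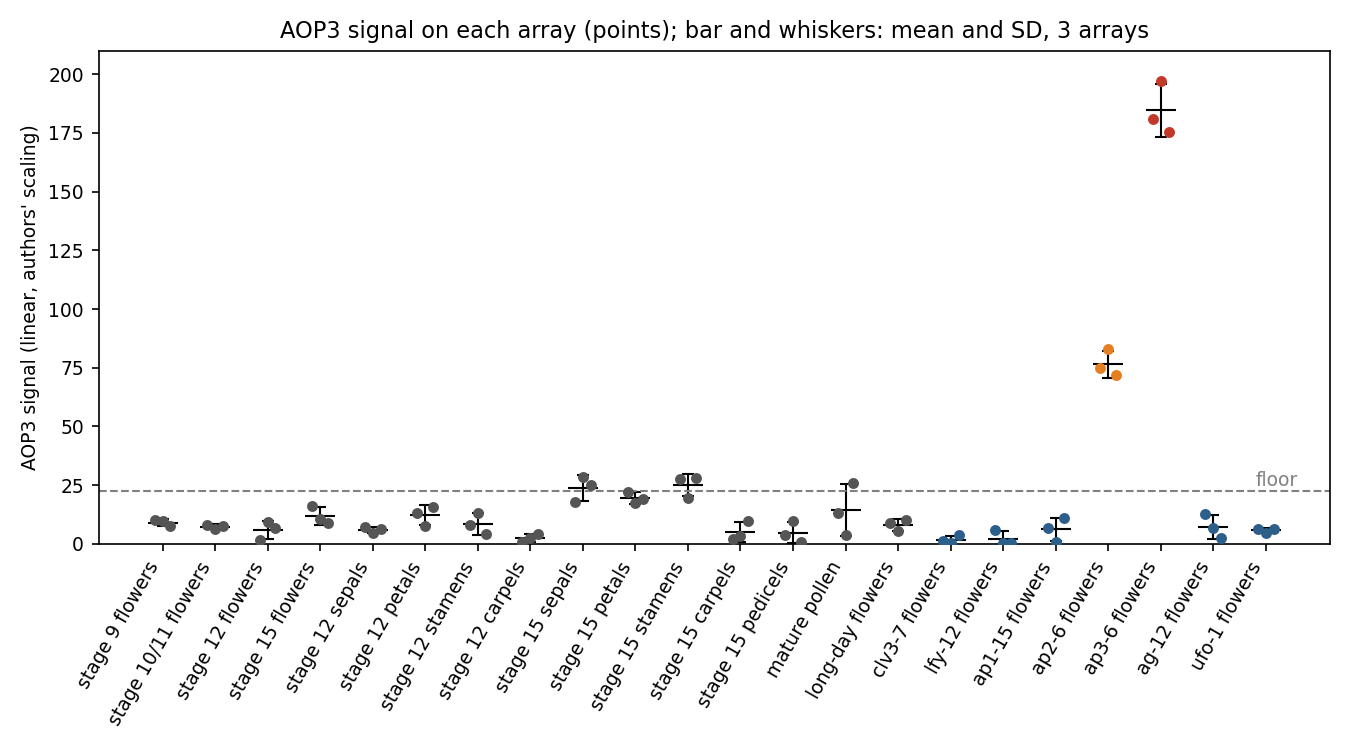
AOP3 signal on a linear axis for each of the 66 arrays (points) in the 22 groups, with the mean and SD of 3 arrays; the dashed line is the floor of 22.61. The 3 ap3-6 arrays lie between 176 and 197 and the 3 ap2-6 arrays between 71.7 and 82.8, and every other array lies at 28.6 or below.

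Below those groups, each group overlapped the next in the order of AOP3 levels, so neighbours in that order were not told apart by their ranges. Stage 15 stamens came next with 27.7, 19.7 and 28.0, a mean of 25.1 ± 4.73. Stage 15 sepals gave 17.9, 28.6 and 25.1, a mean of 23.9 ± 5.44, and overlapped the stamens almost completely. Stage 15 petals gave 22.2, 17.2 and 19.0, just under the floor on every array. Mature pollen was uneven, at 13.1, 3.91 and 26.1. These stamens, sepals and pollen supplied the 5 arrays above the floor among the 60, and the remaining 17 groups were below it.

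Whole wild-type flowers carried little AOP3 signal at any stage. Stage 9 flowers gave 10.0, 9.65 and 7.55, stage 10/11 flowers gave 8.20, 6.15 and 7.46, and stage 15 flowers gave 16.3, 10.5 and 8.74. The long-day flowers gave 9.08, 5.27 and 10.1. The labels of the stage 9 and stage 10/11 arrays carry a number 2 beside the replicate letter, which those of stages 12 and 15 do not, so this difference in labels and the step from stage 10/11 to 12 cannot be told apart. Among the dissected organs of stage 12, petals averaged 12.2 ± 4.16, stamens 8.44 ± 4.64, sepals 6.00 ± 1.29 and carpels 2.47 ± 1.77. Stage 15 carpels averaged 5.08 ± 4.22 and pedicels 4.69 ± 4.54. All of these groups were below the floor, where differences between signals have no firm order. Every dissected organ of stage 12 was below it, the sepals and carpels that ap3-6 flowers keep included. The part of any organ in the AOP3 level of ap3-6 flowers was not tested.

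The mutants were compared with stage 12 flowers to ask whether AOP3 is altered by other defects of flower development. AOP3 rose in ap2-6 flowers by a log2 change of 2.37 ± 0.22 (SE), at least 3.38-fold over the floor, with an adjusted p of 1.73e-13 in limma, and the rise held on all 3 arrays. In that comparison 6.43% of all probe sets were called, and 1.46% were called higher. In ap3-6 flowers the log2 difference was 3.53, at least 8.16-fold over the floor, and 7.31% of probe sets were called, but this is the contrast that chose the gene. Both values rest on the same 3 stage 12 arrays.

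The remaining 5 mutants were below the floor together with stage 12 flowers, so no fold is given and none was called. By their labels, ufo-1 flowers are altered in the petal and stamen whorls, as ap3-6 flowers are. Anther and tapetum markers, read below, summed to 829 to 866 in ufo-1 flowers against 9.22 to 12.8 in ap3-6 flowers. Flowers of ufo-1 gave AOP3 signals of 6.47, 4.83 and 6.45 (adjusted p 0.954 in limma, 5.08% of probe sets called). Flowers of ag-12 gave 12.5, 6.55 and 2.28 (adjusted p 0.822, 7.08% called). Flowers of ap1-15 gave 6.796, 0.753 and 10.8 (adjusted p 0.989, 5.58% called). Flowers of lfy-12 gave 5.97, 0.419 and 0.320 (adjusted p 0.183, 9.80% called). Flowers of clv3-7 gave 1.02, 0.461 and 3.56 (adjusted p 0.296, 0.697% called). No array of these 5 groups reached the lowest ap2-6 array.

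Within wild-type plants AOP3 was compared between organs, between stages and between pollen and stamens. With the 6 mutants other than ap3-6, this made 31 tested comparisons between 2 groups. A further 9 set an organ against the mean of the other organs of its stage, and none of these was called, although 7 had an unadjusted p below 0.05 in limma. In 19 of the 31 both groups were below the floor, and none of these was called, although 4 had an unadjusted p below 0.05 in limma. Of the other 12, 6 were called, and ap2-6 was 1 of them.

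The other 5 calls involved stage 15 sepals or stamens, whose signals straddled the floor. Stage 15 sepals exceeded stage 15 carpels by a log2 change of 1.12 (adjusted p 9.35e-06 in limma, 37.2% of probe sets called and 14.9% called higher). They exceeded stage 15 pedicels by 1.16 (adjusted p 5.08e-06, 33.5% called and 15.1% higher). Stage 15 stamens exceeded carpels by 1.17 (adjusted p 3.89e-06, 38.8% called and 15.0% higher) and pedicels by 1.22 (adjusted p 2.09e-06, 35.4% called and 15.2% higher). Against the floor these differences are at least 1.06-fold for sepals and at least 1.11-fold for stamens. None of the 5 reached 2-fold with a pseudocount equal to the floor.

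From stage 12 to stage 15 AOP3 rose in sepals by a log2 change of 1.01 (adjusted p 7.34e-05 in limma, 16.8% of probe sets called and 6.94% higher). The sepal calls were fragile. Without stage 15 carpel replicate 1 the difference from carpels was 0.99, and without stage 15 pedicel replicate 3 the difference from pedicels was 0.97, both under 2-fold. The change between sepal stages was under 2-fold, between 0.92 and 0.98, without stage 12 sepal replicate 2 or stage 15 sepal replicate 2 or 3. In stamens the change from stage 12 to 15 was 0.90 (adjusted p 3.09e-04, 24.0% of probe sets called), under 2-fold, and it passed at 1.08 without stage 12 stamen replicate 2 and at 1.02 without stage 15 stamen replicate 2. Stage 15 sepals, petals and stamens were not told apart, with adjusted p from 0.381 to 0.845. Mature pollen was not called against stage 15 stamens (log2 difference -0.59, adjusted p 0.0124, 49.3% of probe sets called) or against stage 12 stamens (0.31, adjusted p 0.190, 44.3% called).

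Markers of the organs the mutants lose or gain were read beside AOP3. In whole flowers, fewer cells of a type and less RNA per cell cannot be told apart. Of 10 carpel and ovule markers 4 had a probe set of their own in the annotation used, namely SPT, INO, CES and BAN. Their summed signal ran from 310 to 326 in stage 12 flowers, from 464 to 531 in ap2-6 flowers and from 588 to 682 in ap3-6 flowers. It was also raised in ufo-1 flowers, at 429 to 519. Dissected carpels had the highest sums, at 1008 to 1108 at stage 12 and 931 to 1010.5 at stage 15, ranges that overlapped. AOP3 was below the floor in ufo-1 flowers and in carpels of both stages. The ovule marker BAN was above the floor on all arrays of stage 15 carpels and below it in the other groups named here.

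The 4 anther and tapetum markers, ATA27, AMS, SHT and AT5G07230, summed to 968 to 1025 in stage 12 flowers. They summed to 1910 to 1953 in ap2-6 flowers and to 9.22 to 12.8 in ap3-6 flowers, with none above the floor on all ap3-6 arrays. The 4 pollen markers, MGH3, PLIM2a, AtVEX1 and ANX1, summed to 668 to 734 in stage 12 flowers, 167 to 199 in ap2-6 flowers and 7.40 to 15.0 in ap3-6 flowers, where none was above the floor. The anther sums of the 2 mutants with AOP3 signal thus lay on opposite sides of stage 12 flowers. Mutants with AOP3 below the floor lay on both sides as well. Their anther sums were 2.25 to 11.4 in ag-12, 328 to 357 in lfy-12 and 829 to 866 in ufo-1 flowers. In clv3-7 flowers the anther sum was 1644 to 1862, and in ap1-15 flowers 3004 to 3150. Pollen sums were 6.10 to 20.9 in ag-12, 14.6 to 15.2 in lfy-12 and 63.4 to 68.5 in ufo-1 flowers. They were 292 to 324 in ap1-15 and 871 to 892 in clv3-7 flowers. These sums also changed with stage in wild-type flowers. Anther sums were 2704 to 2963 at stage 9, 3862 to 3998 at stage 10/11 and 3.79 to 13.8 at stage 15. Pollen sums there were 14.9 to 18.1, 30.8 to 38.7 and 566 to 649. Both sums of ap2-6 and of ap1-15 flowers lay between stages 10/11 and 12, and no other mutant had both there. The carpel sum of ap2-6 flowers lay above stage 12. Organ content and stage cannot be told apart here, and the stage match was not tested. The green tissue markers RCA and PORB together ran from 2860 to 3116 in stage 12 flowers, from 2798 to 2866 in ap2-6 flowers and from 2718 to 3041 in ap3-6 flowers, ranges that overlapped. The petal and stamen identity genes AP3 and PI were not analysed here. The part of any of these tissues in the AOP3 level was not tested.

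Few probe sets separated the 2 mutants from all other groups as AOP3 did. Of 22746 probe sets other than controls, 19 had all 6 ap2-6 and ap3-6 arrays above the floor and above every other array, and 12 of these pair with a single gene. Only 2 did so by more than 2-fold, AOP3 and a probe set that pairs with no gene in the annotation used, whose lowest value in the pair was 1587 against 630 elsewhere. The next were AT4G19240, with 41.2 against 29.1, and AT5G15360, with 86.4 against 63.0. Chromosome 4 holds 4 of the 12, AOP3 included. Chromosome 4 also holds 14.6% of the tested probe sets with a named locus. Because ap3-6 flowers chose the gene, the separation is a description.

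**Figure D2:**
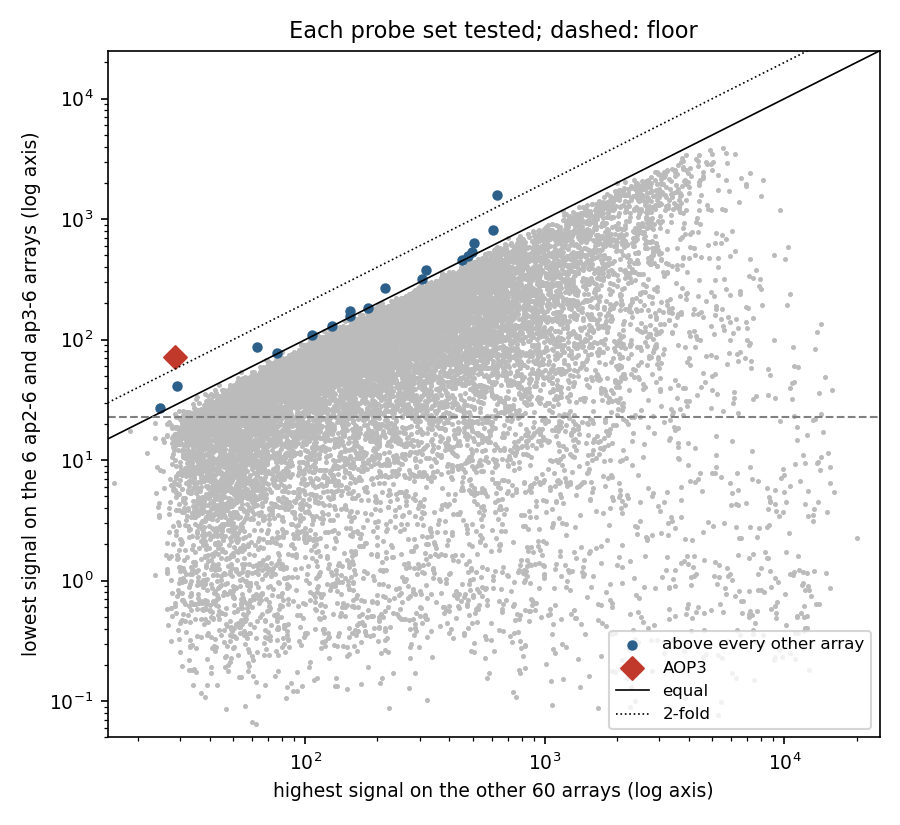
Each of the 17646 probe sets tested, with the lowest signal on the 6 ap2-6 and ap3-6 arrays against the highest signal on the other 60 arrays, both on log axes. Probe sets above the solid line of equality and the dashed floor exceed every other array, and AOP3 (red diamond, 71.7 against 28.6) lies above the dotted line of 2-fold.

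The genes most like AOP3 were found by the Pearson correlation of group means of log2(signal + 11.31), as a description over 22 groups that share their arrays and scaling. The highest correlations were 0.92 for AT4G19240, 0.86 for AT5G15360, 0.81 for AT5G22960 and 0.70 for MAK10 (AT2G11000). AT4G00920 followed with 0.66, AT1G10110 with 0.63, AT5G18840 with 0.55 and AT2G20720 with 0.54. Over the 21 groups without ap3-6 flowers, 4 of these 8 stayed among the first 8, namely AT4G19240 at 0.80, MAK10 at 0.70, AT5G15360 at 0.67 and AT5G22960 at 0.50. The 4 that dropped out fell to 0.19 for AT4G00920, 0.35 for AT1G10110, 0.14 for AT5G18840 and 0.22 for AT2G20720. The other 4 places went to AT5G52880, AT4G39270, AT1G69340 and AT1G62760, with correlations from 0.51 to 0.57. Of these 21 groups only ap2-6 flowers had every AOP3 array above the floor, and 17 were below it. The correlations over 21 groups thus rest on ap2-6 flowers and on AOP3 signals near or below the floor.

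These genes were picked by likeness over groups that include ap3-6 and ap2-6 flowers, so a peak shared with AOP3 there is favoured by the choice. AT4G19240 too stood highest in ap3-6 and next in ap2-6 flowers. Its ap3-6 arrays gave 109, 113 and 117 and its ap2-6 arrays 41.2, 45.7 and 51.7, against 3.64 ± 0.395 (SD, n = 3) in stage 12 flowers. It was below the floor in every other group except mature pollen, where it ran from 6.89 to 29.1. Like AOP3, it passed the filter on dim signals through ap3-6 and ap2-6 flowers alone. AT5G15360 gave a mean of 249 ± 43.1 in ap3-6 flowers and 92.7 ± 9.27 in ap2-6 flowers, against 10.0 ± 3.37 in stage 12 flowers. Unlike AOP3, it was above the floor on all 3 pollen arrays, with a mean of 51.3 ± 10.1, and stage 12 stamens ran from 14.2 to 25.4. AT5G22960 gave 54.6 ± 5.83 in ap3-6 flowers but was below the floor in ap2-6 flowers, at 17.1 ± 1.70. MAK10 was above the floor in all groups, with 111 ± 5.99 in ap3-6 flowers, 109 ± 23.8 in ap2-6 flowers and 74.6 ± 8.51 in stage 12 flowers.

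**Figure D3:**
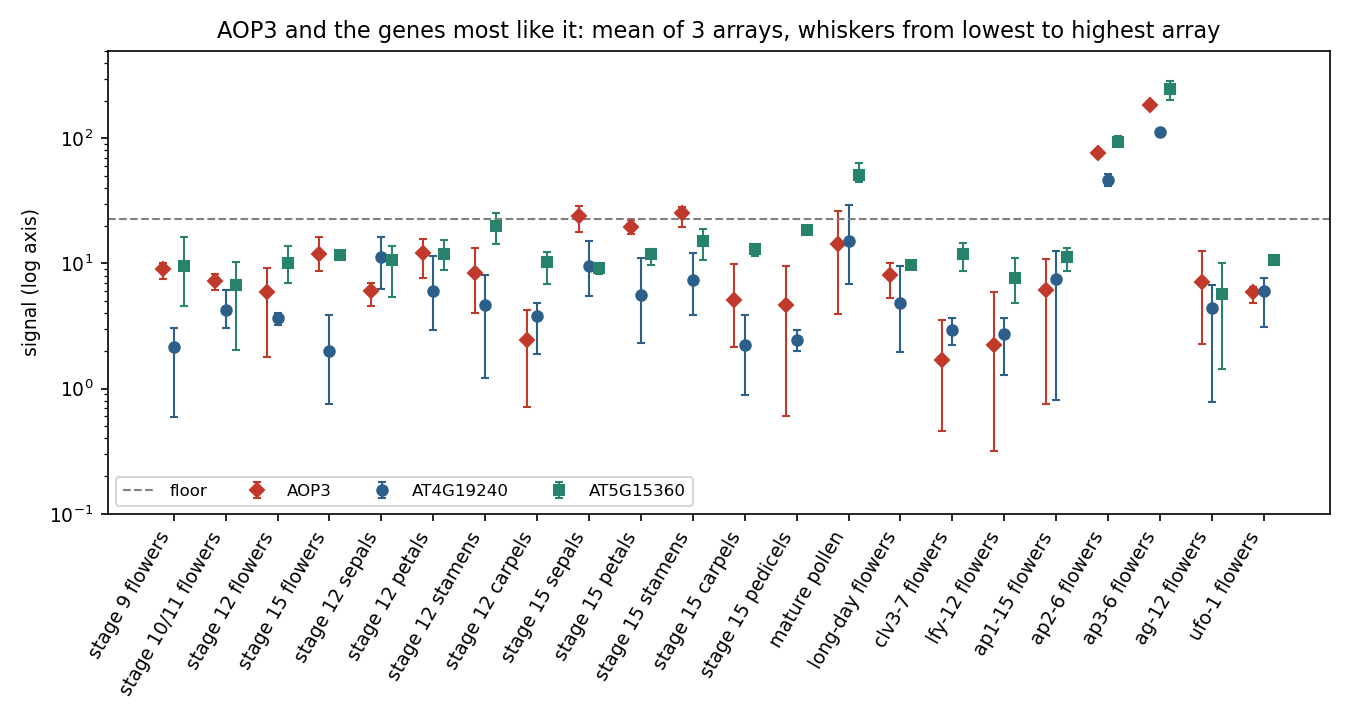
Signal on a log axis for AOP3, AT4G19240 and AT5G15360 in each of the 22 groups, as the mean of 3 arrays with whiskers from the lowest to the highest array; the dashed line is the floor of 22.61. All 3 genes stand highest in ap3-6 and next in ap2-6 flowers, and AT5G15360 is also above the floor in mature pollen. AT4G19240 and AT5G15360 were picked for their likeness to AOP3 over these groups. Signals of different probe sets are not compared with each other.

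Of the nearest genes on the chromosome, those measured did not stand highest in ap3-6 and ap2-6 flowers. In the gene order of the TAIR10.1 annotation the 5 genes on one side are AT4G03040, MIR826b, MIR826a, AT4G03038 and AT4G03030, and those on the other are AT4G04385, AOP2, AT4G03063, AOP1 and BSL1. Of these 10, only AT4G03040, AT4G03030 and AOP1 have a probe set of their own in the annotation used. AT4G03040, the nearest on one side, was below the floor in all 22 groups. AT4G03030 was measured throughout, with 98.99 ± 6.77 in stage 12, 104 ± 7.48 in ap2-6 and 128 ± 16.6 in ap3-6 flowers, and it peaked in mature pollen at 1079 ± 74.2. AOP2, annotated as a transcribed pseudogene in Columbia, was not analysed here. Probes of related tandem copies can share transcripts, and how far the AOP3 probe set reads AOP1 or AOP2 was not tested.

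AOP1 was above the floor in every group except mature pollen, whose arrays straddled it, and it was called in none of the 6 mutants tested. In ap2-6 flowers its signals averaged 69.7 ± 5.62 (SD, n = 3) against 58.1 ± 0.198 in stage 12 flowers, a log2 change of 0.22 (adjusted p 0.0712 in limma) that was not called. In ap3-6 flowers it averaged 109 ± 3.20, a log2 difference of 0.80 given as a description. AOP1 was highest in stage 15 petals, at 335 ± 21.7, and stage 15 stamens, at 266 ± 13.3, and lowest in mature pollen, at 19.4 ± 7.71. From stage 12 to stage 15 it rose in petals by 1.78 (adjusted p 4.87e-23) and in stamens by 2.35 (adjusted p 1.94e-28) on the log2 scale. Over the same step AOP3 was below the floor at both stages in petals. In stamens it went from 8.44 ± 4.64 to 25.1 ± 4.73, a log2 change of 0.90 that was under 2-fold and not called.

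Other glucosinolate genes were read from a list of 73, covering regulators, chain elongation, core synthesis, side-chain changes, transport and breakdown. Only 11 have a probe set of their own in the annotation used, and all 11 were tested, while the other 62 were not analysed here. That annotation ties 8730 probe sets to no gene, so a gene missing from it may still be on the array. The 11 are the bHLH factors MYC3 and MYC4, which act with MYB regulators of the pathway, and BCAT4, the aminotransferase that starts methionine elongation. GSTU20 and AT2G31790 belong to the aliphatic core group of the list, and UGT74B1 is the glucosyltransferase of the shared core. AOP1 and AT2G25450 are in the side-chain group, GTR1 and GTR2 import glucosinolates into cells, and PYK10 is a beta-glucosidase that breaks glucosinolates down.

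In the 6 mutants tested, none of the 11 was called higher and 8 calls were lower. Calls over all probe sets ran mostly lower too, with 4.97% lower and 1.46% higher in ap2-6, 7.35% and 2.45% in lfy-12, and 3.51% and 2.06% in ap1-15 flowers. In ap2-6 flowers, where AOP3 rose, 3 of the 11 fell, beside 6.43% of all probe sets called. AT2G25450 fell from 201 ± 11.9 (SD, n = 3) to 30.4 ± 3.67, a log2 change of -2.35 (adjusted p 3.07e-23 in limma). BCAT4 fell from 124 ± 13.5 to 40.7 ± 1.68, a change of -1.38 (adjusted p 6.49e-13). GTR2 fell from 180 ± 2.93 to 64.6 ± 11.6, a change of -1.35 (adjusted p 1.57e-16). The same 3 genes fell in lfy-12 flowers, where AOP3 was below the floor, AT2G25450 to 18.2 ± 6.01, GTR2 to 84.0 ± 13.4 and BCAT4 to below the floor, at least 5.499-fold lower. The GTR2 change there was -1.02 and came under 2-fold, at -0.96 and -0.97, without lfy-12 replicate 1 or 2. In ap1-15 flowers BCAT4 fell to 47.1 ± 3.14 and GSTU20 from 670 ± 32.9 to 319 ± 10.5.

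No member was called in clv3-7, ag-12 or ufo-1 flowers, beside 0.697%, 7.08% and 5.08% of all probe sets. In ap3-6 flowers 1 of the 11 lay past the thresholds, AT2G25450 at 60.2 ± 4.39, beside 7.31% of all probe sets, and nothing is read from it since this contrast chose AOP3. The median log2 change of the 11 was -0.26 in ap2-6 flowers against 0.06 over all probe sets tested. It was 0.01 in ap3-6 flowers against 0.08. In ap1-15 flowers it was -0.59 against 0.07, and in lfy-12 flowers -0.15 against 0.08. It was 0.01 against 0.02 in clv3-7, -0.06 against 0.05 in ag-12 and -0.07 against 0.08 in ufo-1 flowers. All of these contrasts share the 3 stage 12 arrays.

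**Figure D4:**
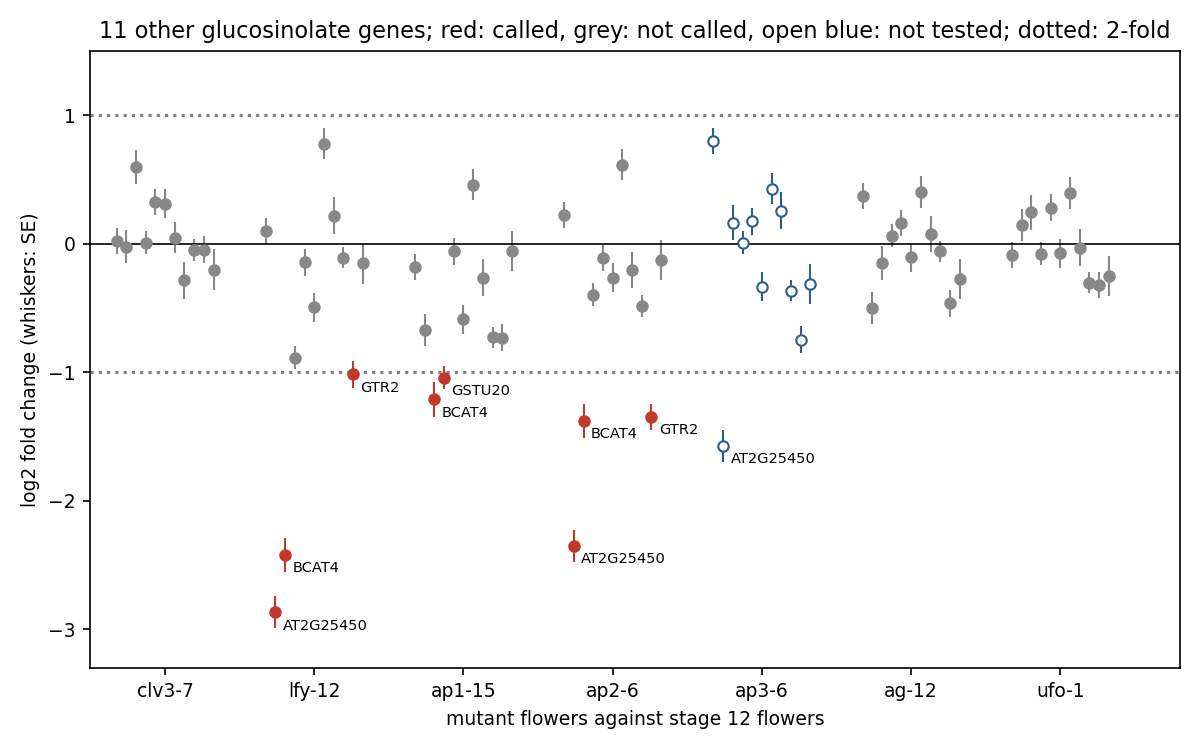
Log2 fold change with its SE for the 11 other glucosinolate genes in each of the 7 mutants against stage 12 flowers, with called genes in red, genes not called in grey, ap3-6 values, which are descriptions, as open blue points, and dotted lines at 2-fold. The 8 red points in the 6 tested mutants lie below 0, with AT2G25450 at -2.35 in ap2-6 flowers; in ap3-6 flowers it lies at -1.57.

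The stages and organs gave more calls for the list, in both directions. In whole flowers none of the 11 was called between stages 9 and 10/11 (3.15% of all probe sets called). From stage 10/11 to 12, 3 rose and none fell (6.27% called, 4.90% higher and 1.37% lower). The 3 were AT2G25450, BCAT4 and GTR2, the genes that fell in ap2-6 flowers. That rise and that fall share the same 3 stage 12 arrays, so they are not independent. Whether ap2-6 flowers were younger than stage 12 flowers was not tested, so stage and mutation cannot be told apart for this fall. Here too the label with the number 2 and the stage cannot be told apart. From stage 12 to 15, 4 rose and 1 fell (12.2% called, 7.54% higher and 4.69% lower). AT2G25450 reached 1170 ± 40.8 (SD, n = 3), GTR1 went from 159 ± 2.11 to 486 ± 19.3 and GTR2 from 180 ± 2.93 to 704 ± 18.5, while PYK10 rose from below the floor to 51.0 ± 6.44. GSTU20 fell from 670 ± 32.9 to 153 ± 12.5.

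Within organs, the step from stage 12 to 15 gave 20 calls higher and 6 lower over 4 organs. Of all probe sets, 6.94% were called higher and 9.91% lower in sepals, and 11.6% and 13.7% in petals. These shares were 12.0% and 12.0% in stamens and 3.33% and 1.21% in carpels. In petals 6 rose and 1 fell (25.3% of all probe sets called). There GTR2 went from 40.02 ± 6.71 to 1574 ± 69.6 and AT2G25450 from 23.1 ± 4.99 to 1526 ± 226, while GSTU20 fell from 653 ± 48.3 to 29.9 ± 6.44. In stamens 7 rose and 3 fell (24.0% called), with GSTU20 falling from 538 ± 18.6 to below the floor, at least 23.8-fold lower. In sepals 4 rose and 1 fell (16.8% called), with AT2G25450 going from 1153 ± 61.5 to 2616 ± 450. In carpels 3 rose and 1 fell (4.54% called), where AT2G25450 reached 57.3 ± 5.08 with a change of 1.04 that came under 2-fold without stage 15 carpel replicate 1. BCAT4 rose in sepals from 78.6 ± 8.39 to 301 ± 4.39 and fell in stamens from 122 ± 13.5 to below the floor. Over these same steps the AOP3 call in sepals was the only one for AOP3, and its signals stayed at 28.6 or less.

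Against the mean of the other organs of its stage, stage 12 sepals had 6 of the 11 higher and none lower (22.4% of all probe sets called), among them GTR1, GTR2, BCAT4 and AOP1. Stage 12 stamens had 4 higher and 2 lower (30.5% called), petals 0 and 3 (11.9% called), and carpels 0 and 4 (22.1% called). Of all probe sets, 12.5% were called higher and 9.92% lower in stage 12 sepals, and 13.0% and 17.5% in stamens. These shares were 5.07% and 6.86% in petals and 12.1% and 10.0% in carpels. At stage 15 sepals had 4 higher and 1 lower (21.1% called), petals 5 and 3 (14.5% called), and stamens 3 and 4 (20.3% called). Pedicels had 3 higher and 2 lower (23.1% called), with BCAT4 at 257 ± 3.49 (SD, n = 3) and GSTU20 at 670 ± 69.4. Carpels of stage 15 had none higher and 5 lower (25.5% called). At stage 15 the shares higher and lower over all probe sets were 10.45% and 10.7% in sepals and 7.26% and 7.22% in petals. They were 9.76% and 10.5% in stamens, 12.5% and 10.6% in pedicels, and 16.2% and 9.30% in carpels. AOP3 itself was called in none of these comparisons with the mean of the other organs.

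**Figure D5:**
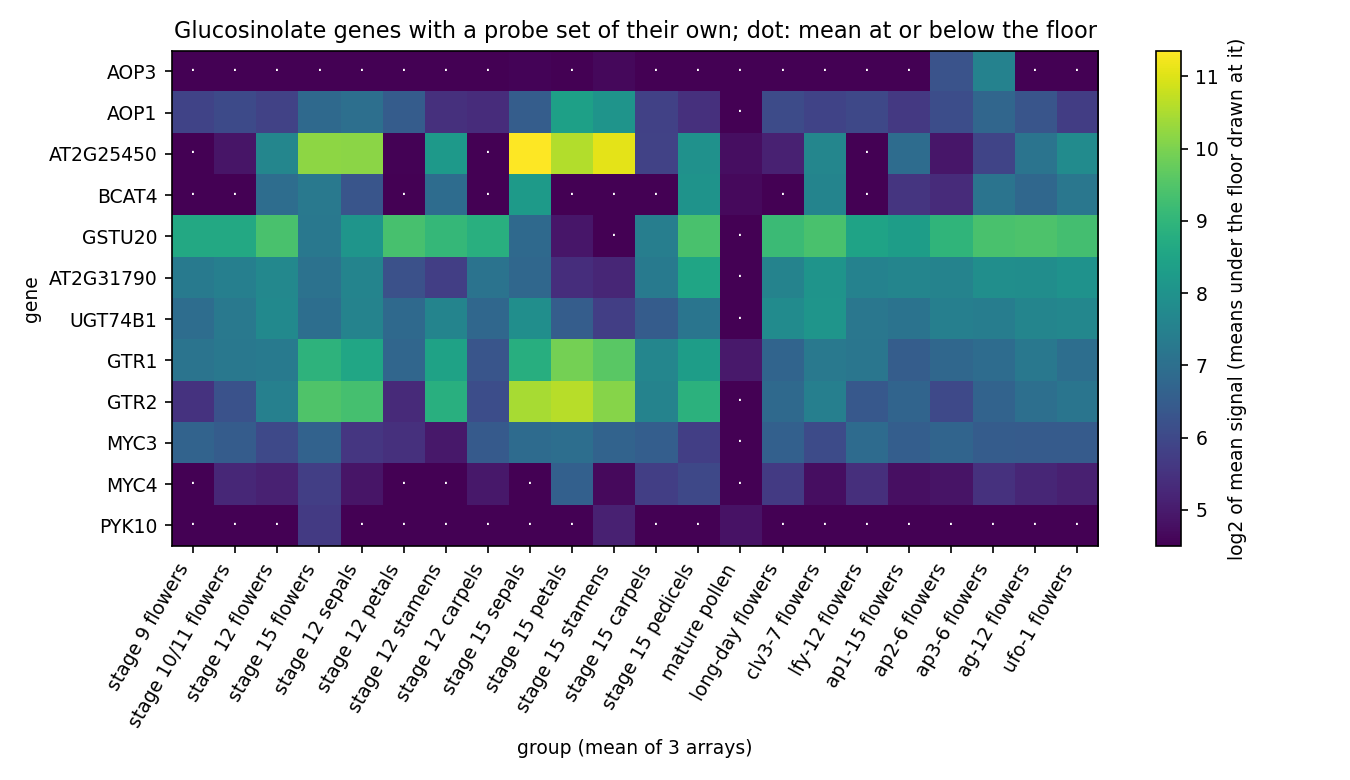
Log2 of the mean signal of 3 arrays for AOP3 and the 11 other glucosinolate genes in the 22 groups, with means under the floor drawn at it and marked with a dot. AOP3 has undotted cells in ap3-6 (184.6) and ap2-6 (76.5) flowers and, just over the floor, in stage 15 stamens (25.1) and sepals (23.9), whereas AT2G25450 and GTR2 are each brightest in stage 15 sepals, petals and stamens. Rows are read along the groups, and signals of different probe sets are not compared with each other.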

How the data were processed

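RNA from flowers, floral organs and pollen was measured on 66 ATH1 arrays, 3 for each of 22 combinations of labelled tissue and genotype. The authors deposited 1 signal intensity per probe set and array, made with MAS5 per the submitters' processing notes, whose version and settings are not given in the sources used here; the values were used with that scaling. The number of arrays limits the precision. The array holds 22810 probe sets, of which 64 are controls and were not used. A further 5100 lacked any group with every array over the floor of 22.61, the 40th percentile of all values, and were dropped. The pseudocount, 11.31, is 0.5 of the floor. In the platform annotation 13513 probe sets are tied to 1 gene, 503 to several and 8730 to none, controls aside. Of the first kind, 13436 matched a locus of the RefSeq TAIR10.1 table, which gave gene names and gene order. AT2G25450, AT2G31790 and AT5G07230 carry no other name there.

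Linear models were fitted to log2(signal + 11.31) in limma 3.58.1 (R 4.3.3), using every array and a separate mean for each of the 22 groups, and moderated by eBayes with trend=TRUE. The residual degrees of freedom were 44 and the prior ones 10.6. P-values were adjusted by Benjamini-Hochberg over the 17646 probe sets tested, within each comparison, and are two-sided. Where 1 group lay below the floor, the mean of the other was divided by the floor and the fold is printed as "at least". The procedure was tested on simulated data.

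AOP3, the gene list and the markers were chosen with earlier results of these data known. Named genes are the AOP genes, the listed glucosinolate genes that were called or are transporters, the 8 genes most correlated with AOP3 over 22 and over 21 groups, and the 5 annotated genes on either side. Genes set apart by the arrays of ap2-6 and ap3-6 flowers, and levels of uncalled list members, were named after their values were seen. Where several probe sets read 1 gene, the brightest is shown.

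Alternatives were a pseudocount of the floor or none, no filter on dim signals, quantile normalization, division by each array's 75th percentile, only the groups compared, robust eBayes, the replicate letter as a block, and each array left out in turn.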

Additional observations from a re-analysis of the deposited data

Results flagged for a closer look

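BCAT4, which starts methionine elongation, changed in opposite directions with age in 2 organs. From stage 12 to stage 15 its log2 change was 1.80 in sepals and -2.31 in stamens, with all arrays of the later stage above those of the earlier stage in sepals and below them in stamens. Stage 15 stamens were below the floor, so BCAT4 was at least 5.41-fold lower there, and the fitted -2.31 depends on the pseudocount. The difference between the organs was not tested.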

How the results depend on the processing

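The rise of AOP3 in ap2-6 flowers was called under each of the 8 alternatives and without each array, where the change ran from 2.183 to 2.506. Letters shared by arrays of different groups did not pair them, since deviations of 672 same-letter pairs had a median correlation of 0.000835 and 1.49% exceeded 0.1, against 1.42% of 1407 pairs with different letters. With the replicate block the ap2-6 change was 2.37 (adjusted p 6.27e-13 in limma), and the only call it changed for AOP3 was stage 15 petals over pedicels.

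With a pseudocount equal to the floor, changes of stage 15 sepals were 0.75 over carpels, 0.77 over pedicels and 0.69 over stage 12 sepals. Those of stage 15 stamens were 0.79 over carpels and 0.81 over pedicels. All were under 2-fold. A larger pseudocount shrinks changes between dim signals, so these calls depend on its size. Stage 15 over stage 12 stamens was called with quantile normalization, at 1.12. The ap3-6 difference was 5.25 without a pseudocount and 2.87 with 1 equal to the floor. Of the 19 comparisons below the floor, 5 were called without a pseudocount, 2 with quantile normalization, 1 with the replicate block and 0 to 1 without single arrays. Of the 8 genes most like AOP3, 5 remained without a pseudocount, 5 with quantile normalization and 4 without ap3-6 flowers. The AOP3 level was 171.9 in ap3-6 flowers after division by the 75th percentile and 68.87 in ap2-6 flowers after quantile normalization.

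Without single arrays, stage 15 sepals ran from 0.08617 to 0.3105 against petals, -0.1668 to 0.07329 against stamens (above 0 at 0.07329 without sepal replicate 1 and 0.005466 without stamen replicate 3), 0.9942 to 1.322 against carpels, 0.9703 to 1.375 against pedicels and 0.9175 to 1.142 against stage 12. Stage 15 stamens ran from 1.048 to 1.376 against carpels, 1.024 to 1.429 against pedicels and 0.7349 to 1.075 against stage 12, and petals from -0.3498 to -0.1776 against stamens. Pollen ran from -0.9103 to -0.2625 against stage 15 stamens and -0.007815 to 0.6399 against stage 12 stamens, the lowest without pollen replicate 3. The ap3-6 difference ran from 3.341 to 3.664. List calls ran from 7 to 8 in the 6 mutants tested, 48 to 50 among organs, 25 to 26 between organ stages and stayed at 8 between flower stages. Without a pseudocount, probe sets called rose from 123 to 193 in clv3-7, 1729 to 2601 in lfy-12, 984 to 1506 in ap1-15, 1134 to 1814 in ap2-6, 2555 to 4233 in stage 15 petals against other organs, 555 to 972 from stage 9 to 10/11 and 802 to 1329 in carpels, and with a pseudocount equal to the floor clv3-7 had 78. The causes of these shifts were not tested. Signals near the floor limit every statement on AOP3 outside ap2-6 and ap3-6 flowers.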
